A study of Mus musculus with 9 samples.

Results

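The mitochondrial genome carries its own small set of genes, and this account follows all of their transcripts in mouse muscle. Every row of the deposited expression table whose gene name starts with mt- was taken, which gave 37 of 56805 rows. They comprise 13 protein genes, 2 ribosomal RNA (rRNA) genes and 22 transfer RNA (tRNA) genes. A normalized count of at least 10 in at least 3 libraries was required for testing, which 22 of the 37 met: the 13 protein genes, both rRNA genes and 7 tRNA genes. The other 15 mt genes are tRNA genes and are described by their values only.

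RNA came from the left tibialis anterior, a fast-twitch muscle at the front of the lower hind limb, of male mice aged 13 months. The genotype labels are wild type (WT), Svil-KO and Svil-Mut, with 3 mice and 1 library per mouse for each. Svil encodes supervillin, a protein of the membrane skeleton that binds actin and myosin, and the series concerns the metabolism and muscle function of mice in which it is altered. The sources used here do not give the alleles behind the 2 altered genotypes, the strain background or the cells in which the alleles act. All libraries carry the same batch label, 1. The p-values below measure only the spread between these few mice.

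Both strands of mitochondrial DNA are transcribed as long precursors, from which the tRNAs are cut out, and the stretches between them become the messenger RNAs and rRNAs. The messages encode core subunits of respiratory complexes I, III and IV and of ATP synthase, which work only once assembled with many subunits encoded in the nucleus. Most of the genes lie on one strand, and mt-Nd6 with a group of tRNA genes lies on the other. Nuclear chromosomes also hold old copies of mitochondrial DNA, some of them nearly identical to the original.

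The libraries held 36234428 to 48762188 reads and 19282 to 19988 detected genes. Normalized counts of Svil itself ranged from 8407 to 9373 for WT, from 6656 to 7402 for Svil-KO and from 3939 to 4615 for Svil-Mut. By limma, Svil was lower in Svil-Mut than in WT (log2 fold change -1.01, adjusted p = 0.000941) and did not pass in Svil-KO (log2 fold change -0.35, adjusted p = 0.997). All 11 markers of fast muscle fibres were expressed, with summed normalized counts of at least 5944000 in every library. Svil-KO and Svil-Mut were both compared with the same WT libraries.

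A block of 7 neighbouring pseudogenes on chromosome 1 copies 1 continuous stretch of the mitochondrial genome, and is described first because mt levels differed inside and outside that stretch. It spans chr1:24611535-24616197 on the minus strand (4663 bases, GRCm38 in the GENCODE annotation) and runs in the same order and at nearly the same spacing as chrM:6390-11042 (4653 bases). Its members copy the end of mt-Co1 (Gm29216), mt-Co2 (Gm28661), mt-Atp6 (Gm10925), mt-Co3 (Gm28437), mt-Nd3 (Gm28438), mt-Nd4l (Gm10222) and the start of mt-Nd4 (Gm28439). Aligned to the mt genes without gaps, 5 of the 7 pseudogenes had 0 differences, over 294 to 876 bases each. Gm29216 and Gm28438 had 1 difference each, over 483 and 345 bases. Both differences stand in capitals in the sequences that follow, with positions counted on chrM and the mitochondrial base first: A6393T for mt-Co1 and T9461C for mt-Nd3. The start of mt-Atp6 is shown with its copy because a read from either place would be the same. The capitals there mark the 43 bases that mt-Atp6 shares with the end of mt-Atp8, so even within the mitochondrial genome those bases belong to 2 genes. The sequences are GENCODE transcripts on GRCm38, given 5′ to 3′, from chrM:6390-6423 and chr1:24616155-24616188, chrM:9459-9491 and chr1:24613087-24613119, and chrM:7927-7986 and chr1:24614592-24614651.
mt-Co1: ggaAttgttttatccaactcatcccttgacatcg
Gm29216: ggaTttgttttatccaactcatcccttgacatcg
mt-Nd3: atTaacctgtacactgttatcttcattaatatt
Gm28438: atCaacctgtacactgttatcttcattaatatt
mt-Atp6: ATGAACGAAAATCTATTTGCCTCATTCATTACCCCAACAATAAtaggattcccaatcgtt
Gm10925: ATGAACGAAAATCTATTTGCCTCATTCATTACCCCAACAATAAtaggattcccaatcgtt

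Among the 13 protein genes the level split along this copied stretch. Of all 50-base windows of a gene, 100% were also found in a nuclear GENCODE transcript for mt-Co2, 99.9% for mt-Co3, 99.5% for mt-Atp6, 98.8% for mt-Nd4l and 98.0% for mt-Nd3. The share was 62.2% for mt-Nd4 and 51.1% for mt-Co1, 8.19% for mt-Nd2, 7.61% for mt-Nd5, and 0% for mt-Nd1, mt-Nd6 and mt-Cytb. For mt-Atp8 it was also 0%, but mt-Atp8 lies inside the copied stretch at a place where no pseudogene is annotated on chromosome 1, so its value says nothing about the genome itself. The setting for reads that match more than 1 place, and the read length, are not stated in the labels.

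The 7 protein genes that lie outside the copied stretch, wholly or in part, were counted at high levels. Per kilobase of gene, their mean normalized counts over the 9 libraries ran from 89937 for mt-Nd6 to 346306 for mt-Cytb, with mt-Nd1 at 334907, mt-Co1 at 191743, mt-Nd2 at 166853, mt-Nd5 at 129975 and mt-Nd4 at 104078. The 6 protein genes inside it reached 1248 per kilobase for mt-Co2, 1077 for mt-Co3, 851 for mt-Atp6, 145 for mt-Atp8, 123 for mt-Nd3 and 30.5 for mt-Nd4l. The lowest of the 7 thus stood 72.1-fold above the highest of the 6, on the per-kilobase scale. When mt-Nd4 was divided only by the bases outside shared 100-base windows, its level was 285695 per kilobase. The same step gave 369380 for mt-Co1 and 190531 for mt-Nd2, while mt-Nd5 stayed at 129975 and mt-Nd6 at 89937. The plot of levels along the mitochondrial genome shows this trough of the protein genes from mt-Co2 to mt-Nd4l in all genotypes. The tRNA genes were low beside the 7 protein genes. The 17 tRNA genes outside the stretch had means of 0 to 3855 per kilobase (highest mt-Te). The 5 inside it had means of 0 to 94.2 (highest mt-Ts1), and none of them met the minimum for testing. Whether the tRNA genes follow the stretch was not tested.

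**Figure D1:**
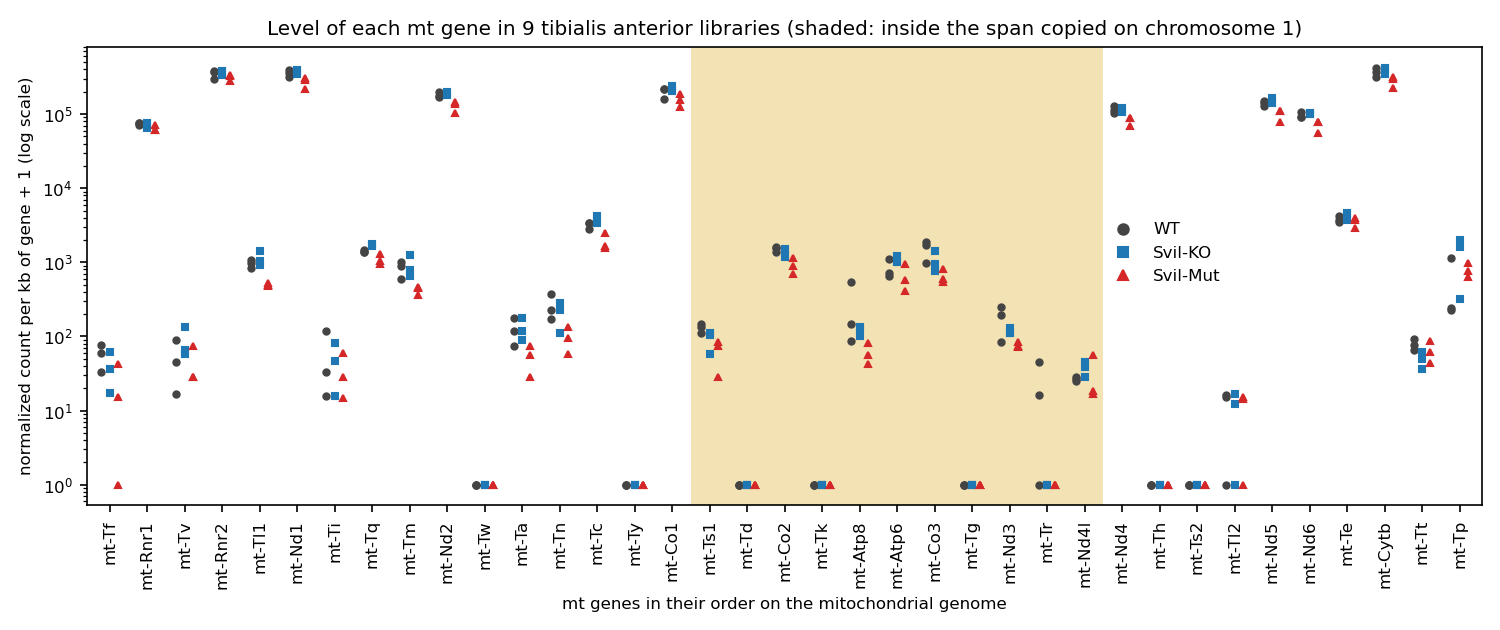
Normalized count per kilobase of gene plus 1 (vertical axis, log scale) for the 37 mt genes in genome order, 1 point per library, with the genes inside the stretch copied on chromosome 1 shaded. The 6 shaded protein genes lie at means of 30.5 to 1248 per kilobase, while the 7 other protein genes lie at 89937 to 346306.

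The pseudogene rows also held few counts. Gm28661 averaged 1666 normalized counts, Gm10925 2490, Gm28437 4103, Gm28438 787 and Gm10222 55.1, each above the mt gene that it copies. Adding every annotated copy that has a row in the deposited data to the mt row still gave only 3712 for mt-Co2, 3070 for mt-Atp6, 4948 for mt-Co3, 830 for mt-Nd3 and 64.1 for mt-Nd4l. An annotated copy of mt-Atp6, AC124578.3, has no such row. The 6 protein genes inside the stretch made up 0.00325% to 0.00865% of all counts in a library, and the 7 pseudogenes 0.00954% to 0.0521%. Whether these 6 rows follow the level of the RNA in the muscle was not tested.

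The copies also spread widely between libraries of the same genotype. Gm28661 was at 710, 1532 and 5164 in WT replicates 1, 3 and 4, at 1752, 1225 and 1449 in Svil-KO replicates 1, 3 and 4, and at 2318, 234 and 610 in Svil-Mut replicates 1, 2 and 4. Over the libraries of all genotypes its range was 22.1-fold. On the same basis the other rows of the block ranged 8.47-fold to 18.6-fold, except Gm28438 at 2.28-fold. The highest library stood 1.82-fold to 2.11-fold above the lowest for the 7 protein genes outside the stretch. Gm28438, the copy of mt-Nd3 with the base difference T9461C, was at 747, 892 and 1011 in WT, at 888, 989 and 999 in Svil-KO, and at 543, 571 and 444 in Svil-Mut. All Svil-Mut libraries were below all others for Gm28438, with a log2 fold change against WT of -0.76 ± 0.15 (SE) that did not pass by limma (adjusted p = 0.145). DESeq2 called it lower in Svil-Mut (adjusted p = 0.000845), the only such call among the 7 pseudogenes, where it called 0.471% of all genes lower.

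**Figure D2:**
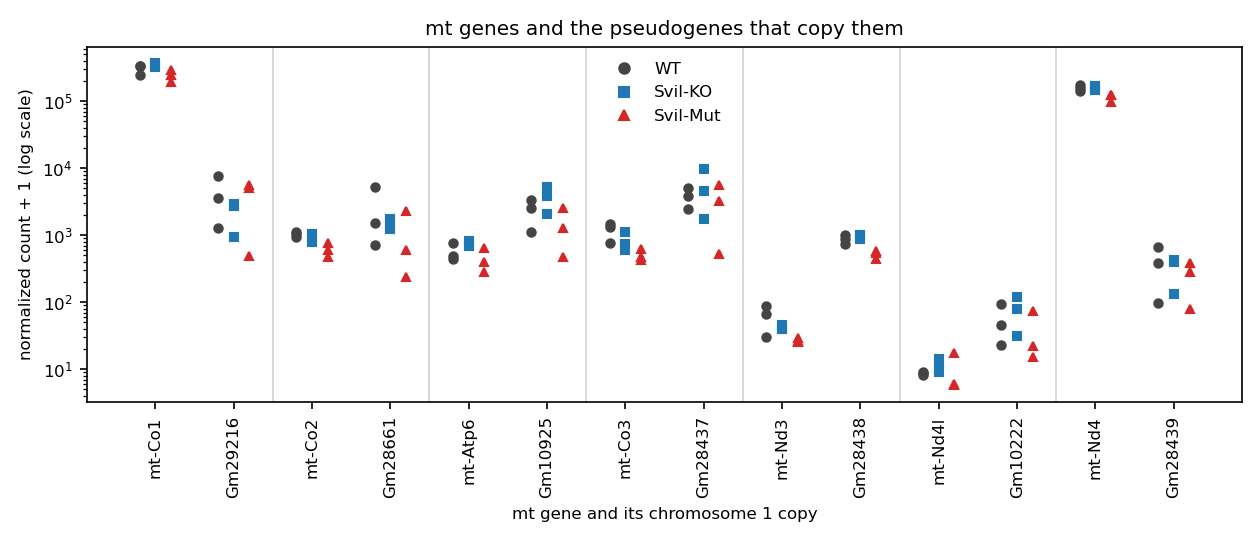
Normalized count plus 1 (vertical axis, log scale) of 7 mt genes, each beside its chromosome 1 pseudogene, 1 point per library. The pseudogenes exceed the mt gene on average in 5 of the 7 pairs, while mt-Co1 and mt-Nd4 lie far above their partial copies. Over the libraries of all genotypes the pseudogenes range up to 22.1-fold, for Gm28661.

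The tRNA genes contributed little to the counts, 0.00133% to 0.00266% of a library. cDNA was primed with oligo(dT), so these counts need not follow the amounts of the tRNAs. Of the 22 tRNA genes, 7 were at 0 in every library (mt-Tw, mt-Ty, mt-Td, mt-Tk, mt-Tg, mt-Th and mt-Ts2), which allows up to 3 reads in each library, or 2.39 to 3.30 normalized counts. Of these, 3 (mt-Td, mt-Tk and mt-Tg) lie inside the copied stretch. Another 8 stayed below the test's minimum, none above 12.1 normalized counts in any library. Of the 7 tested tRNA genes, 5 (mt-Tq, mt-Tn, mt-Tc, mt-Te and mt-Tp) lie on the minus strand, which holds 8 of the 22. Because the libraries do not mark strand, reads at those genes cannot be told apart from reads of the precursor transcribed across them from the other strand. The highest counted were mt-Te (chrM:14071-14139, mean 266), mt-Tc (chrM:5192-5257, mean 196) and mt-Tq (chrM:3772-3842, mean 99.7), whose annotated sequences are printed beside that of mt-Tk (chrM:7700-7764). mt-Tk was at 0 throughout. It lies on the plus strand and also inside the copied stretch, so it differs from the others in both respects. The first 3 are given as the minus strand reads, 5′ to 3′, with no capitals.
mt-Te: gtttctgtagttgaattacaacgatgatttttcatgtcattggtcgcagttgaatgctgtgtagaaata
mt-Tc: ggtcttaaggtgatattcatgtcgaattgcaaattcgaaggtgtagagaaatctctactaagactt
mt-Tq: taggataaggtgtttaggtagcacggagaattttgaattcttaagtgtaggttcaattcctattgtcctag
mt-Tk: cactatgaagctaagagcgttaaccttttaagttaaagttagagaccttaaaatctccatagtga

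Taken as a whole, the mt genes made up the smallest share of counts in Svil-Mut. The share was 6.10%, 5.32% and 6.51% in the WT libraries, 6.27%, 5.87% and 6.56% in Svil-KO, and 5.03%, 4.77% and 3.93% in Svil-Mut. The Svil-Mut libraries lay below all WT and Svil-KO libraries, and Svil-KO overlapped WT. The difference between Svil-Mut and WT was -1.40 percentage points (exact 2-sided permutation p = 0.1, the smallest that 3 against 3 allows, adjusted p = 0.15 over 3 comparisons). Between Svil-KO and Svil-Mut it was 1.66 points (exact p = 0.1, adjusted p = 0.15), and between Svil-KO and WT 0.256 points (exact p = 0.6). Counting error was small beside this, since the widest 95% Wilson interval of a library's share was ± 0.00786 points. It covers counting error only, because reads amplified by PCR are not independent molecules.

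**Figure D3:**
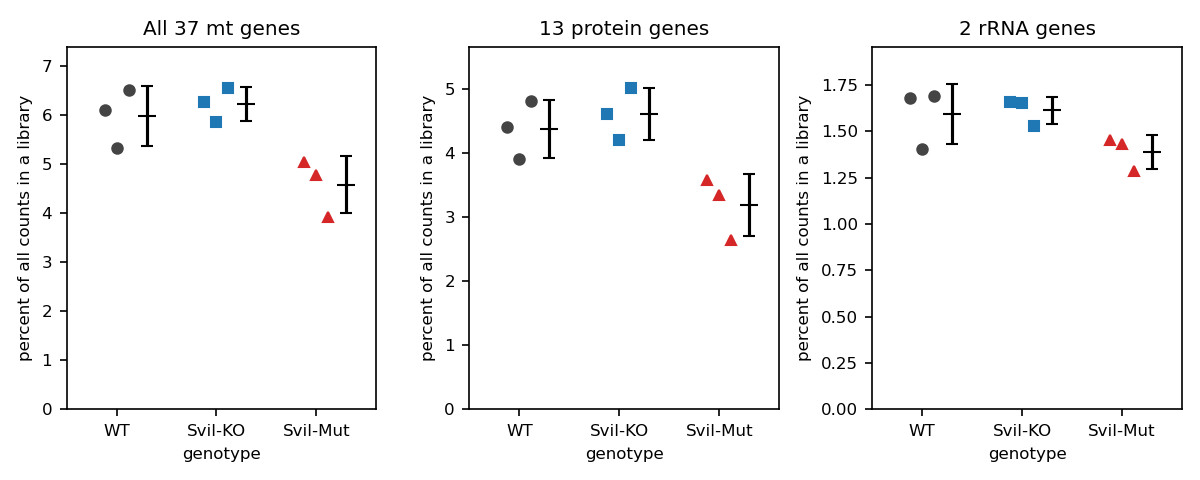
Percent of all counts (vertical axis) taken by the 37 mt genes, the 13 protein genes and the 2 rRNA genes in each library, with the mean and SD of 3 libraries beside the points. The Svil-Mut points lie below the WT and Svil-KO points for all mt genes and for the protein genes, and overlap WT for the rRNA genes.

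In a share, genes trade against one another, so an abundant nuclear transcript is given beside it. Acta1, skeletal muscle actin, stood at 5.08% ± 0.126 of counts for WT, 5.36% ± 0.282 for Svil-KO and 6.23% ± 0.257 for Svil-Mut (SD, 3 libraries each). With the 10 most abundant nuclear genes left out of the total, the mt share differed by -1.58 points between Svil-Mut and WT (exact permutation p = 0.1, again the smallest possible). That total is smaller, so this difference is not on the scale of the share of all counts. The part of other transcripts in the share was not tested. In bulk muscle, fewer cells or fibres of a type and less RNA per cell cannot be told apart.

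In Svil-Mut against WT, the 5 complex I messages outside the copied stretch, wholly or in part, were counted at 70.7% to 75.0% of the WT mean. mt-Nd2 (chrM:3914-4951), a membrane subunit of complex I, was at 181193, 177626 and 206861 in WT, at 204494, 186493 and 202189 in Svil-KO, and at 140151, 153521 and 106209 in Svil-Mut. All Svil-Mut libraries were below all others, and the mean was 70.7% of WT. The log2 fold change of mt-Nd2 was -0.51 ± 0.12 (SE) and did not pass by limma (unadjusted p = 0.00168, adjusted p = 0.273).

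mt-Nd5 (chrM:11742-13565), another membrane subunit of complex I, was at 259310, 233053 and 273265 in WT, 274623, 253591 and 298266 in Svil-KO, and 201508, 198740 and 141318 in Svil-Mut. mt-Nd4 (chrM:10167-11544) was at 156956, 143073 and 175046 in WT, 160778, 145160 and 166842 in Svil-KO, and 123819, 122760 and 96339 in Svil-Mut. Svil-Mut did not overlap the other genotypes in either gene, and replicate 4 was the lowest Svil-Mut library in both. Their log2 fold changes were -0.51 ± 0.13 for mt-Nd5 and -0.47 ± 0.11 for mt-Nd4 (limma adjusted p = 0.283 and 0.266).

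mt-Nd6 (chrM:13552-14070, minus strand), the single protein gene on its strand, was at 47925, 47410 and 54969 in WT, 52704, 54189 and 52661 in Svil-KO, and 40406, 40606 and 29226 in Svil-Mut. mt-Nd1 (chrM:2751-3707) was at 343571, 307819 and 381268 in WT, 362751, 332539 and 381677 in Svil-KO, and 278947, 289872 and 206110 in Svil-Mut. In both genes the 3 Svil-Mut libraries were again the lowest. The log2 fold changes against WT were -0.46 ± 0.12 for mt-Nd6 and -0.42 ± 0.13 for mt-Nd1 (limma adjusted p = 0.283 and 0.336), and without Svil-Mut replicate 4 they were -0.30 and -0.27.

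For mt-Co1 and mt-Cytb, Svil-Mut overlapped WT and did not overlap Svil-KO. mt-Co1 (chrM:5328-6872), the catalytic subunit of complex IV, was at 331925, 249610 and 332060 in WT, 337704, 319718 and 369785 in Svil-KO, and 291693, 242920 and 190768 in Svil-Mut. WT replicate 3 lay below Svil-Mut replicate 1. mt-Cytb (chrM:14145-15288), the cytochrome b of complex III, was at 426483, 363584 and 473153 in WT, 458293, 403355 and 481631 in Svil-KO, and 364475, 335489 and 259100 in Svil-Mut. Svil-Mut replicate 1 just exceeded WT replicate 3 there. The log2 fold changes were -0.34 ± 0.15 for mt-Co1 and -0.40 ± 0.14 for mt-Cytb (limma adjusted p = 0.495 and 0.379). Without Svil-Mut replicate 4 they were -0.18 and -0.26.

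Of the 22 tested mt genes, 0 passed an adjusted p of 0.05 by limma in Svil-Mut against WT, where 0.0393% of the 15279 genes tested did. At an unadjusted p under 0.05, 15 of the 22 were lower in Svil-Mut, against 5.32% of all genes tested. All 3 Svil-Mut libraries lay below all WT libraries for 15 of the 22, against 6.81% of all genes. The log2 fold change was below 0 for 21 of the 22, with mt-Tp as the exception, and for 13 of the 13 protein genes, whose median was -0.47 beside -0.0046 over all genes tested. The 7 protein genes outside the copied stretch lay between -0.51 and -0.34 (median -0.46, or -0.30 without Svil-Mut replicate 4). mt genes share precursors and library totals, so these counts are not independent observations.

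The count of calls turned on the tool. On the whole reads recovered from the table, edgeR's quasi-likelihood test called 0 of the 22 mt genes (0.0393% of all genes). DESeq2 called 6 as lower in Svil-Mut than in WT, where 0.471% of all genes were called lower. These were mt-Nd2, mt-Nd4, mt-Nd5 and mt-Nd6, together with mt-Co2 and mt-Co3 from the copied stretch. DESeq2's adjusted p was 0.0139 for mt-Nd2, 0.0114 for mt-Nd4, 0.0249 for mt-Nd5 and 0.0341 for mt-Nd6.

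**Figure D4:**
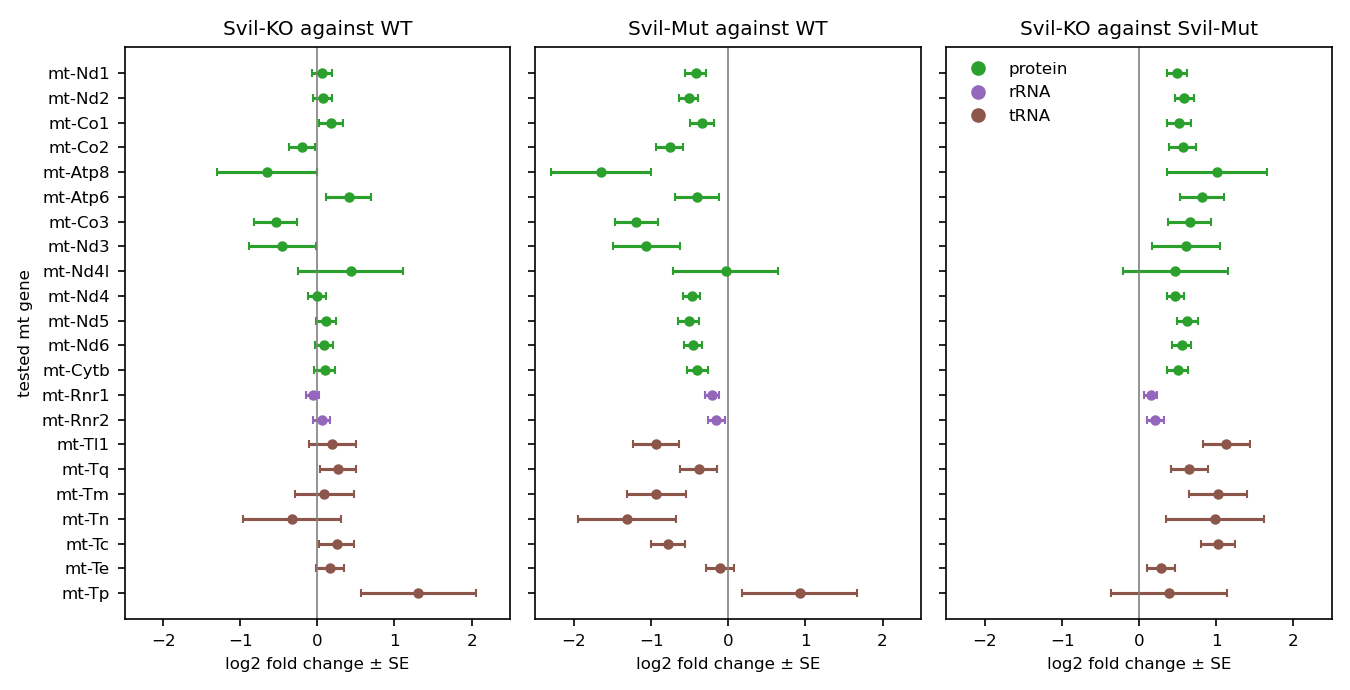
Log2 fold change with its limma standard error (horizontal axis) of the 22 tested mt genes (vertical axis) in each comparison, coloured by gene class. In Svil-Mut against WT, 21 of 22 points lie below 0, with the protein genes outside the copied stretch between -0.51 and -0.34 and the rRNA genes at -0.21 and -0.16, while in Svil-KO against WT points lie on both sides.

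The 6 protein genes inside the copied stretch were further from WT and more scattered, with a median log2 fold change of -0.91 in Svil-Mut. mt-Co2, a copper-bearing subunit of complex IV, was at 1059, 933 and 1114 in WT, 1025, 797 and 895 in Svil-KO, and 770, 611 and 480 in Svil-Mut (log2 fold change -0.76 ± 0.17, limma adjusted p = 0.245). mt-Co3, a further complex IV subunit, was at 1494, 777 and 1326 in WT, 1126, 744 and 600 in Svil-KO, and 630, 431 and 470 in Svil-Mut (-1.20 ± 0.28, limma adjusted p = 0.266). Svil-Mut lay below WT in both, though mt-Co3 overlapped Svil-KO.

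For the ATP synthase messages the values moved with the library left out. mt-Atp8 was at 17.5, 29.3 and 110 in WT, 27.5, 20.4 and 25.5 in Svil-KO, and 11.2, 16.2 and 8.52 in Svil-Mut. WT replicate 4 stood far above the other 8 libraries, and leaving it out took the log2 fold change of mt-Atp8 in Svil-Mut from -1.65 ± 0.65 to -0.91. mt-Atp6 was at 492, 443 and 764 in WT, 697, 679 and 818 in Svil-KO, and 393, 648 and 281 in Svil-Mut, so Svil-Mut overlapped WT (log2 fold change -0.41 ± 0.29, limma adjusted p = 0.687). The value for mt-Atp6 was -0.12 without Svil-Mut replicate 4, -0.17 without WT replicate 4 and -0.73 without Svil-Mut replicate 2.

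The 2 small complex I messages of the stretch were counted by few reads. mt-Nd3 was at 66.7, 29.3 and 87.6 in WT, 38.5, 44.8 and 38.3 in Svil-KO, and 25.5, 28.6 and 24.6 in Svil-Mut. The Svil-Mut libraries were the lowest, by less than 1 normalized count from WT replicate 3 (log2 fold change -1.06 ± 0.44, limma adjusted p = 0.445). mt-Nd4l did not exceed 16.2 in any library, and its mean in Svil-Mut was 114% of WT although its log2 fold change was -0.03 ± 0.68, so it has no settled direction.

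The log2 fold changes of the rRNAs in Svil-Mut were nearer to 0 than those of the protein genes outside the stretch. mt-Rnr2 (chrM:1094-2675), the large ribosomal RNA, was at 594439, 478077 and 593640 in WT, 595657, 594081 and 533194 in Svil-KO, and 526803, 523961 and 442442 in Svil-Mut. mt-Rnr1 (chrM:70-1024), the small ribosomal RNA, was at 72047, 69053 and 72189 in WT, 70988, 72085 and 61599 in Svil-KO, and 58177, 68554 and 58065 in Svil-Mut. mt-Rnr2 overlapped between Svil-Mut and WT, while mt-Rnr1 did not, by a narrow margin. Their log2 fold changes were -0.16 ± 0.11 and -0.21 ± 0.09 (limma adjusted p = 0.681 and 0.443). For mt-Rnr2 the value was -0.073 without Svil-Mut replicate 4, -0.10 without WT replicate 1 and -0.26 without WT replicate 3. Per kilobase mt-Rnr2 was counted 4.89-fold above mt-Rnr1, although the mitochondrial ribosome holds both in equal number. cDNA was primed with oligo(dT), so counts of the rRNAs, and ratios built on them, need not follow the amounts of these RNAs.

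As a share of mt counts, rRNA was therefore highest in Svil-Mut, at 28.8%, 29.9% and 32.7%, against 27.6%, 26.4% and 25.9% in WT and 26.4%, 28.2% and 23.3% in Svil-KO. The ratio of rRNA counts to protein gene counts does not depend on the size factor. It was 0.381, 0.359 and 0.350 in WT, 0.360, 0.392 and 0.304 in Svil-KO, and 0.405, 0.428 and 0.486 in Svil-Mut. All Svil-Mut libraries were above all others. The log2 ratio differed by 0.27 between Svil-Mut and WT (exact 2-sided permutation p = 0.1, adjusted p = 0.4 over 12 tests of ratios) and by -0.32 between Svil-KO and Svil-Mut (exact p = 0.1, adjusted p = 0.4).

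Between the genotypes, the ratio of mt-Nd6 to the protein genes of the other strand overlapped. The libraries do not mark strand, so reads at mt-Nd6 cannot be told from reads of the precursor of the other strand. The balance of the strands itself was therefore not measured. The ratio of mt-Nd6 to the sum of the other 12 protein genes averaged 0.0300 ± 0.00198 for WT, 0.0300 ± 0.00272 for Svil-KO and 0.0294 ± 0.000711 for Svil-Mut (SD, 3 libraries each). Its log2 value differed by -0.028 between Svil-Mut and WT (exact permutation p = 0.8). Complex I messages outweighed those of complex IV 3.28 ± 0.330 to 1 in WT, 3.03 ± 0.0694 to 1 in Svil-KO and 3.0004 ± 0.313 to 1 in Svil-Mut. In that ratio nearly the whole complex IV side is mt-Co1, since mt-Co2 and mt-Co3 lie in the copied stretch.

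**Figure D5:**
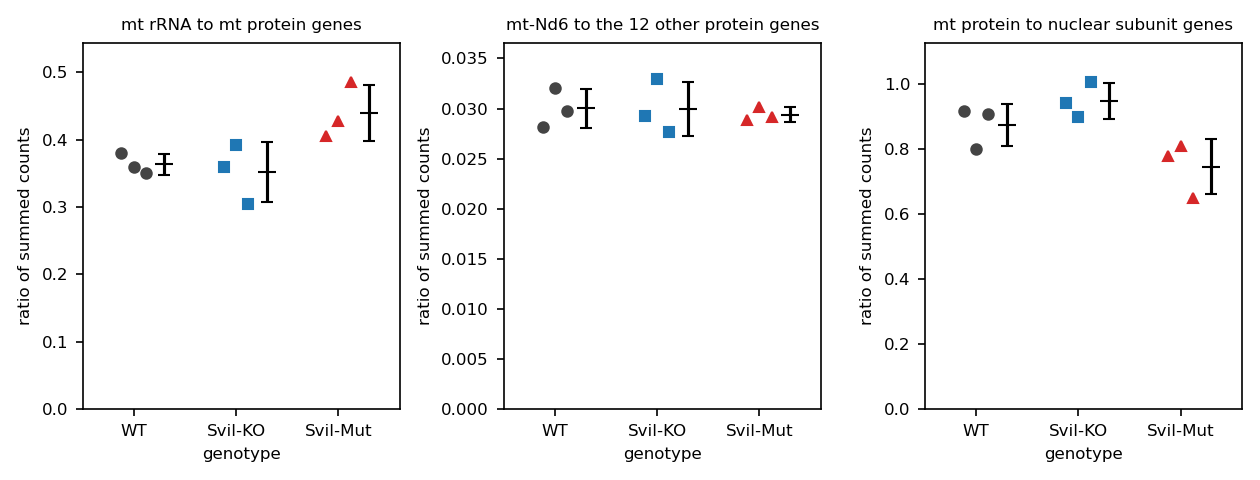
Ratios of summed counts within a library (vertical axes) by genotype, with the mean and SD of 3 libraries beside the points: rRNA to protein genes, mt-Nd6 to the 12 other protein genes, and mt protein genes to nuclear respiratory chain genes. The Svil-Mut points lie above the others in the first ratio, at 0.405 to 0.486, and overlap WT in the other ratios.

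Among the 7 tested tRNA genes, 5 had all Svil-Mut libraries below all WT libraries. mt-Tc was at 226, 185 and 224 in WT, 226, 254 and 276 in Svil-KO, and 162, 110 and 104 in Svil-Mut (log2 fold change -0.78 ± 0.22, limma adjusted p = 0.325). mt-Tl1, the leucine tRNA just after mt-Rnr2, was at 62.3, 80.9 and 74.4 in WT, 77.03, 106 and 69.4 in Svil-KO, and 36.7, 36.3 and 38.8 in Svil-Mut (-0.94 ± 0.30, limma adjusted p = 0.356). In both genes Svil-Mut lay wholly below the other genotypes. The remaining log2 fold changes were -1.31 for mt-Tn, -0.93 for mt-Tm, -0.39 for mt-Tq and -0.11 for mt-Te, and none passed by limma. Without Svil-Mut replicate 4 mt-Te was at 0.021.

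mt-Tp was the exception in direction. Its values were 15.3, 16.2 and 77.4 in WT, 109, 135 and 21.5 in Svil-KO, and 66.2, 42.0 and 51.1 in Svil-Mut. In both WT and Svil-KO 1 library stood far from the other pair, so the genotypes overlapped. The log2 fold change of mt-Tp was 0.92 ± 0.75 in Svil-Mut and 1.31 ± 0.75 in Svil-KO against WT (limma adjusted p = 0.737 and 0.997). In Svil-Mut it was 1.67 without WT replicate 4, 0.53 without WT replicate 1 and 0.57 without WT replicate 3.

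In Svil-KO against WT few mt genes stood apart from the spread of the libraries. By limma 0 of the 22 passed, as did 0% of all genes tested, and 0 of the 22 had an unadjusted p under 0.05, against 1.75% of all genes lower and 2.36% higher in Svil-KO. edgeR called 0 of them (0% of all genes) and DESeq2 0 (0.0262% of all genes). The log2 fold change was below 0 for 7 of the 22 and above 0 for 15, and the median of the 13 protein genes was 0.07, beside 0.0031 over all genes tested. The 7 protein genes outside the copied stretch lay between 99.5% and 112% of the WT mean. All Svil-KO libraries lay above all WT libraries for 2 of the 22, mt-Tq and mt-Nd4l, against 5.2% of all genes.

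Svil-KO against Svil-Mut, which also tests whether the 2 genotypes depart from WT by different amounts, had larger differences. The log2 fold change was above 0, that is higher in Svil-KO, for 22 of the 22, and the median of the 13 protein genes was 0.56, beside 0.0089 over all genes tested. By limma 0 of the 22 passed (0.0458% of all genes), with 14 at an unadjusted p under 0.05 (5.51% of all genes in that direction). All Svil-KO libraries lay above all Svil-Mut libraries for 16 of the 22, against 7.55% of all genes. Among them were mt-Nd5 with a log2 fold change of 0.63 ± 0.13, mt-Nd2 with 0.58 ± 0.12, mt-Nd6 with 0.55 ± 0.12 and mt-Tc with 1.03 ± 0.22 (limma adjusted p = 0.169, 0.169, 0.179 and 0.179). edgeR called 0 of the 22 (0.0458% of all genes), and DESeq2 called 7 as higher in Svil-KO, where 0.641% of all genes were called in that direction. The 7 were mt-Nd1, mt-Nd2, mt-Nd4, mt-Nd5, mt-Nd6, mt-Cytb and mt-Tc, with DESeq2 adjusted p from 0.00131 for mt-Nd5 to 0.0300 for mt-Cytb.

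The nuclear genes that make and use mitochondrial RNA were read beside the mt genes. Of 10 genes of mitochondrial transcription, which include the polymerase and its factors, 0 passed by limma in Svil-Mut against WT and 6 were below 0, with a median log2 fold change of -0.01. Of 17 genes of mitochondrial DNA replication and nucleotide supply 0 passed (median -0.07), and of 29 tested genes of mitochondrial RNA processing and stability 0 passed (median -0.08, with 22 below 0). Of those, Mrm2, a methyltransferase of the large ribosomal RNA, had a log2 fold change of -0.65 and Trub2, a pseudouridine synthase, of -0.27 (limma adjusted p = 0.443 for both). edgeR and DESeq2 also called 0 in each of these lists.

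Of 15 mitochondrial translation factors 0 passed, with 12 below 0 and 4 lower at an unadjusted p under 0.05, against 5.32% of all genes. Those 4 were the initiation factor Mtif2 (-0.28) and the elongation factors Tufm (-0.25), Gfm1 (-0.22) and Tsfm (-0.31). Of 17 mitochondrial aminoacyl-tRNA synthetases, which charge the mt tRNAs, 0 passed and the median was -0.05. Of 8 regulators of mitochondrial biogenesis 0 passed, 4 were below 0, and the nuclear receptors Esrrg (-0.61) and Esrra (-0.32) were furthest in that direction (limma adjusted p = 0.398 and 0.402).

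The nuclear-encoded partners of the mt proteins also had values below WT in Svil-Mut. Of 78 nuclear respiratory chain genes 0 passed by limma and 78 were below 0, with a median log2 fold change of -0.22. At an unadjusted p under 0.05, 55 of the 78 were lower, against 5.32% of all genes, and for 48 all Svil-Mut libraries lay below all WT libraries, against 6.81%. By complex the medians were -0.22 for complex I, -0.19 for complex II, which has no mt subunit, -0.26 for complex III, -0.21 for complex IV and -0.19 for ATP synthase. DESeq2 called 5 of the 78 as lower (0.471% of all genes): Ndufb6 and Ndufb9 of complex I, Uqcr11 and Uqcrq of complex III and Cox5b of complex IV, named here after their values were seen. The ratio of mt protein gene counts to the counts of these 78 genes was 0.917, 0.801 and 0.908 in WT, 0.944, 0.898 and 1.01 in Svil-KO, and 0.780, 0.810 and 0.650 in Svil-Mut. Svil-Mut overlapped WT by 1 library in this ratio and did not overlap Svil-KO. The log2 ratio differed by -0.23 between Svil-Mut and WT (exact permutation p = 0.2, adjusted p = 0.6) and by 0.35 between Svil-KO and Svil-Mut (exact permutation p = 0.1, adjusted p = 0.4). The difference between Svil-Mut and WT was -0.14 without Svil-Mut replicate 4 and -0.42 as a mean of log values.

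Other transcripts differed between the same libraries. The 10 markers of slow oxidative fibres, which are rich in mitochondria, summed to 82260 to 120160 normalized counts in WT, 77603 to 123400 in Svil-KO and 39799 to 66234 in Svil-Mut. Most of that sum was Mb, the oxygen store myoglobin, at 74244 to 107775 in WT and 37001 to 60350 in Svil-Mut. All 10 had log2 fold changes below 0 in Svil-Mut against WT (median -0.90), 0 passed by limma, and Mb was at -1.06 (adjusted p = 0.164). All Svil-Mut libraries lay below all WT libraries for 1 of the 10, Mb, against 6.81% of all genes. Of the 11 fast fibre markers 8 were above 0 and 3 below, with Actn3 at 0.42 and Myh2 at -1.84, and 0 passed by limma. DESeq2 called 1 of the 10 as lower, which was Mb (adjusted p = 0.0212, with 0.471% of all genes called lower). Markers of red blood cells, which lack mitochondria when mature, summed to 4480 to 8237 in WT, 2687 to 6292 in Svil-KO and 6605 to 49889 in Svil-Mut, with 7 of 7 tested above 0 and 0 called. Adipocyte markers summed to 9501 to 11270, 8354 to 9562 and 6983 to 10358 in the same order, with 6 of 7 tested below 0 and 0 called, and Ucp1, the marker of brown fat, was at 0 in every library. Immediate early response genes summed to 21853 to 23473, 22102 to 35571 and 55373 to 79503, and 3 of 21 (Fos, Dusp1 and Atf3) passed by limma as higher in Svil-Mut, where 0.0393% of all genes passed. DESeq2 called 15 of the 21 as higher, where 0.654% of all genes were called in that direction.

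The order of the 3 Svil-Mut libraries differed between these lists. Relative to WT, the mean log2 level of the 7 mt protein genes outside the copied stretch was -0.28, -0.31 and -0.75 in Svil-Mut replicates 1, 2 and 4. The slow fibre markers stood at -0.51, -2.13 and -0.09 in the same libraries, and the red blood cell markers at 0.43, 1.51 and 3.45. The nuclear respiratory chain genes stood at -0.11, -0.20 and -0.33. Replicate 4 was thus lowest for the mt genes and for the nuclear respiratory chain genes, highest for red blood cell markers and nearest to WT for slow fibre markers. The part of fibre type, blood or the immediate early response in the mt levels was not tested.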

How the data were processed

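RNA sequencing of 9 libraries was used. Per the labels' protocols, cDNA was primed with oligo(dT), amplified at full length and tagmented, which does not mark strand. Per the submitters' processing notes, HISAT2, featureCounts and DESeq2 were used on mm10. The sources used here give no versions, annotation or counting settings. The authors deposited a signal per gene and library, a read count divided by a size factor. In each library every value above 0 was a multiple of a single step (tolerance 0.002), and dividing by the step gave back whole reads. All sample columns were used.

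limma was the main test, run on log2(normalized count + 1) with a mean-variance trend, genotype as the only factor and all 9 libraries in 1 fit over 15279 genes. Fold changes on this scale understate changes of low genes. p-values were adjusted by Benjamini-Hochberg over all genes tested. Shares and within-library ratios were compared by exact 2-sided permutation tests. Nuclear copies were found with BLAST+ 2.17.0 on GENCODE transcripts, at 85% identity over at least 100 bases, and with shared windows of 50 and 100 bases.

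Every mt gene is accounted for. Other named genes are Svil, up to 4 members of each pathway list and up to 2 of each marker list with the smallest p in Svil-Mut against WT, Acta1, Ucp1 and nuclear copies. Mb is in the marker lists, and Acta1, Ucp1, Atf3 and Dusp1 were added once their values were known. The members and lists were chosen with earlier results of these data known. Alternatives were other pseudocounts, filters, scalings, variance models, a replicate block, edgeR, DESeq2 and leaving out each library. Versions were Python 3.11.15 with scipy 1.17.1 and matplotlib 3.10.9, and R 4.3.3 with DESeq2 1.42.0, edgeR 4.0.16 and limma 3.58.1.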

Additional observations from a re-analysis of the deposited data

How the results depend on the processing

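By limma 0 mt genes passed in each comparison under each pseudocount, filter, scaling and variance model tried, at an adjusted p of 0.10, with edgeR and without each library in turn. DESeq2 called 6 in Svil-Mut against WT and 7 in Svil-KO against Svil-Mut. The median of the 13 protein genes without 1 library ranged from -0.61 to -0.35 in Svil-Mut against WT, from 0.39 to 0.63 in Svil-KO against Svil-Mut and from -0.0086 to 0.14 in Svil-KO against WT, and the lowest sizes in the first 2 came without Svil-Mut replicate 4. The share difference without 1 library ranged from -1.73 to -1.07 points in Svil-Mut against WT and from -0.074 to 0.52 points in Svil-KO against WT, where its sign turned without WT replicate 3. The log2 ratio of rRNA to protein genes ranged from -0.14 to 0.049 without 1 library in Svil-KO against WT, and was 0.026 as a mean of log values. That of mt-Nd6 to the other protein genes ranged from -0.075 to 0.052 in Svil-KO against WT, from -0.073 to 0.021 in Svil-Mut against WT and from -0.047 to 0.080 in Svil-KO against Svil-Mut, and was 0.13, 0.19 and -0.058 as means of log values. That of complex I to complex IV ranged from -0.059 to 0.092 in Svil-KO against Svil-Mut, and as a mean of log values was 0.23 in Svil-KO against WT, 0.27 in Svil-Mut against WT and -0.039 in Svil-KO against Svil-Mut. Means of log values weight the poorly counted genes of the copied stretch like the others. With only the protein genes outside that stretch, a choice made after seeing the data, the medians were 0.089, -0.46 and 0.52, and the ratios kept their direction. In Svil-Mut against WT, mt-Nd4l was at 0.030 with a pseudocount of 10, 0.18 with edgeR and 0.19 with DESeq2, and ranged from -0.072 to 0.25 without 1 library; mt-Te ranged from -0.20 to 0.021. The cause was not tested. Replicate numbers were not used as pairs in the main fit, because no label says that they pair mice. Deviations of 7 same-numbered pairs of libraries correlated between -0.056 and 0.044, and those of 20 other pairs between -0.039 and 0.061. Such correlations cannot show whether the mice were paired. With the replicate block 0 mt genes were called in each comparison, and the medians of the 13 protein genes were 0.071, -0.65 and 0.71. Replicate number 2 occurs only in Svil-Mut, so the block takes up that library whole. The last 2 of these medians thus rest on Svil-Mut replicates 1 and 4. The 15 tRNA genes under the count minimum were not tested.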
